A study of Mus musculus with 9 samples.

Results

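The calgranulins and neutrophil granule proteins are described here through 9 genes: S100a8, S100a9, Lcn2, Stfa1, Stfa3, Camp, Ltf, Ngp and Slpi. Every array feature that the annotation names by exactly 1 of these symbols was taken, which gave 18 of 42624 features. Each feature is a spotted cDNA clone, and 17 of the 18 had a value on all 9 arrays. The genes were chosen by their log2 differences between lymphedematous and normal skin, which were already known. Those differences are therefore given below as a description. Counts of genes or clones past a threshold in that contrast were fixed in part by the choice, and nothing is read from them.

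The arrays compared the skin of mouse tails after surgical interruption of the lymphatics with that of control animals, to learn which genes respond to lymph stagnation. All mice were female hairless SKH-1 mice, an immunocompetent strain, 3 weeks old at study, and tissue was taken on day 14. In the lymphedema group the tail skin was cut around its circumference 16 mm from the tail base, methylene blue was injected to show the lymphatic trunks, and these were cauterized. Sham animals had the same incision and injection without cautery, and normal animals had no surgery. The lymphedema and sham groups thus share the wound and the dye, and a difference between lymphedema and normal skin includes both. Each group comprised 9 mice in 3 pools of 3 mice, and each pool was hybridized once with RNA of whole e17.5 embryos as the common reference. RNA came from whole skin of the distal tail, freed from the cartilage, so that a larger number of cells of a type and more RNA per cell cannot be told apart. Error terms reflect the spread between pools, with n = 3 per group.

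Calgranulins A and B, encoded by S100a8 and S100a9, are calcium-binding proteins that form the calprotectin complex. They make up much of the cytosolic protein of neutrophils, withhold metal ions from microbes, and act outside the cell as danger signals through pattern recognition receptors. Neutrophils also store antimicrobial proteins in granules, among them lipocalin 2, lactoferrin, cathelicidin and neutrophilic granule protein, whose genes are switched on during maturation in the bone marrow. Keratinocytes of injured or inflamed skin can produce S100a8, S100a9, Lcn2, Camp and Slpi as well, so that none of these genes marks neutrophils alone.

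The values are log2 ratios of tail skin over embryo reference, centered on the median of each array. A value of 0 therefore means that the ratio equals the array's median, and a difference of 1 between arrays is a 2-fold change. Because each gene is set against its own level in the embryo, ratios of different genes do not rank their abundance. The sample labels and the methods assign the dyes in opposite ways. Of 24 genes typical of embryos, 22 to 24 lay above the array median of the deposited values, and of 12 genes typical of adult skin 10 to 12 lay below it. The deposited ratio was accordingly read as reference over skin, opposite to the dyes in the labels, and its sign was turned.

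Some features of the arrays bear on every value below. Correlations between arrays over features ran from 0.818 to 0.96, and the lowest was that of sham arrays 1 and 3. Sham array 3 had its highest correlation, 0.912, with lymphedema array 3. Missing values split the arrays as well. There were 186 features measured on all 3 normal arrays and on lymphedema array 1 but on no other array, and the next most frequent of 126 such divisions had 45. The 2 sides of this division are called missing-value sets here. All normal arrays lie in one set and all sham arrays in the other, so that state and set are largely confounded. Lymphedema array 1 lies with the normal arrays.

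The genes occupy few places in the genome, and the sequences upstream of their starts are shown because several of them moved together over the arrays. RefSeq promoters on build GRCm38.p6 were matched for 9 of 9 genes. S100a8 (chr3:90669071-90670034) and S100a9 (chr3:90692630-90695721) are neighbors on chromosome 3. Camp (chr9:109847377-109849456), Ngp (chr9:110419808-110423012) and Ltf (chr9:111019292-111042766) share a stretch of chromosome 9. Stfa1 (chr16:36277148-36285371) and Stfa3 (chr16:36450537-36455392) lie in the stefin cluster of chromosome 16. Lcn2 (chr2:32384637-32387739) and Slpi (chr2:164354070-164356507) are far apart on chromosome 2. The 250 bases before the start are printed for the 5 genes that lay below the array median on every normal array and above it on every lymphedema array, in the direction of transcription. Capitals mark the TATA box letters TATAAA or the letters TTGCNNAA, which are part of the motif bound by C/EBP factors, regulators of myeloid and epithelial genes. Stfa3 holds neither. The S100a8 sequence is chr3:90668821-90669070 (plus strand), that of S100a9 chr3:90695722-90695971 (minus strand), that of Lcn2 chr2:32387740-32387989 (minus strand), that of Stfa1 chr16:36276898-36277147 (plus strand) and that of Stfa3 chr16:36455393-36455642 (minus strand).
S100a8: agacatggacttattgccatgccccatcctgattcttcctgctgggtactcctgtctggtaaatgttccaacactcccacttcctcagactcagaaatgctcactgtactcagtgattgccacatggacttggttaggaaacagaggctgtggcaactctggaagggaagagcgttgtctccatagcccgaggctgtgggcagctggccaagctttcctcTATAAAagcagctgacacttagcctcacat
S100a9: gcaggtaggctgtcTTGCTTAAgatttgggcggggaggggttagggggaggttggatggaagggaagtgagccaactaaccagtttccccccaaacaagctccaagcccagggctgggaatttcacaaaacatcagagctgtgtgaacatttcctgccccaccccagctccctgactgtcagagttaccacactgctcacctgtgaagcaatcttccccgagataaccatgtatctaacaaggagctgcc
Lcn2: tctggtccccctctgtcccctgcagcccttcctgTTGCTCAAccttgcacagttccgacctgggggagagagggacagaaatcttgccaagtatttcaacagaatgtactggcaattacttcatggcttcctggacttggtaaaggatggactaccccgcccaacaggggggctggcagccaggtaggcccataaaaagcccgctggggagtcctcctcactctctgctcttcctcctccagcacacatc
Stfa1: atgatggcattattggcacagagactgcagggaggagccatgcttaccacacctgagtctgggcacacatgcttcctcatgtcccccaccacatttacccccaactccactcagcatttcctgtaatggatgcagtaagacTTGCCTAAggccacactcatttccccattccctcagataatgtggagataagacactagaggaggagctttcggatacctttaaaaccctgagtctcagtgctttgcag
Stfa3: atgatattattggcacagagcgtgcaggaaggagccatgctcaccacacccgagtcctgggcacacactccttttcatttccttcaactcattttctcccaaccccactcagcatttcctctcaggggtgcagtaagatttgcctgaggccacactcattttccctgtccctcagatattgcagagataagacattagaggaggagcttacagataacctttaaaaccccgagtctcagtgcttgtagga
Searched on both strands, TTGCNNAA was found in 6 of the 9 promoters and in 9.56% of 32851 promoters of the same length. It began 236 bases before the start in S100a9, 216 in Lcn2, 109 in Stfa1, 75 in Ltf and 241 in Slpi, and at 138 and 11 bases in Ngp. TATAAA was found in 1 of 9, S100a8, 30 bases before its start, against 12.4% of all promoters. The AP-1 letters TGANTCA and the STAT letters TTCNNNGAA were in none of the 9, against 6.75% and 7.02% of all promoters. No motif searched overlapped another in these windows. A match describes the letters in the window only.

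S100a8 and S100a9, the calgranulin genes, differed between lymphedematous and normal skin by log2 2.83 (SE 0.290) and 4.61 (SE 0.676), or 7.09-fold and 24.4-fold. The log2 ratio of S100a8 was −1.03, −0.93 and −0.58 on normal arrays 1 to 3, −0.078, −0.067 and 1.09 on the sham arrays, and 1.79, 2.13 and 2.01 on the lymphedema arrays. The 3 states did not overlap, although sham array 3 lay far above the other sham arrays. For S100a9 the values were −2.33, −2.09 and −1.70 in normal skin, −1.54, −0.62 and 2.00 in sham skin, and 2.01, 2.79 and 2.91 in lymphedematous skin. Sham array 3 thus almost reached the lowest lymphedema array, and the SD of S100a9 was 1.84 in sham skin, against 0.316 in normal and 0.489 in lymphedematous skin.

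Lcn2, the gene of lipocalin 2, which binds bacterial siderophores and so withholds iron, was 7.11-fold higher in lymphedematous than in normal skin, a log2 difference of 2.83 (SE 0.436). Its log2 ratios were −1.78, −1.74 and −1.66 in normal skin, −1.58, −0.61 and 0.68 in sham skin, and 0.66, 1.26 and 1.39 in lymphedematous skin. Sham array 1 was close to the normal arrays, whereas sham array 3 was just above lymphedema array 1.

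The stefin genes Stfa1 and Stfa3 encode cytosolic inhibitors of cysteine proteases such as cathepsins. They differed between lymphedematous and normal skin by log2 1.90 (SE 0.239, 3.74-fold) and 2.37 (SE 0.276, 5.15-fold). Stfa1 had log2 ratios of −1.09, −0.74 and −0.72 in normal skin, −0.15, −0.14 and 0.71 in sham skin, and 1.14, 1.12 and 0.89 in lymphedematous skin. Stfa3 had −1.65, −0.90 and −1.15 in normal, −0.32, −0.27 and 0.64 in sham, and 1.01, 1.32 and 1.06 in lymphedematous skin. In both genes the states stood in the order normal, sham, lymphedema without overlap. The genes of this cluster are close copies of each other, and a spotted cDNA may bind transcripts of several of them, so the assignment to 1 stefin gene is uncertain.

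The granule protein genes had smaller differences. Camp, which encodes the precursor of the antimicrobial peptide cathelicidin, had log2 ratios of 0.78, 0.35 and 0.31 in normal skin, 1.11, 0.84 and 0.99 in sham skin, and 1.12, 1.53 and 1.27 in lymphedematous skin. The lymphedema minus normal difference was 0.83 (SE 0.192, 1.77-fold), and the sham arrays lay close under the lymphedema arrays. Ngp, the gene of neutrophilic granule protein, a cathelicidin- and cystatin-like protein of secondary granules, had 1.17, 1.33 and 0.98 in normal, 1.62, 1.39 and 1.49 in sham, and 1.97, 1.91 and 1.64 in lymphedematous skin. Its difference was 0.68 (SE 0.174, 1.60-fold), and the states again did not overlap, with a narrow gap between sham array 1 and lymphedema array 3. Ltf, the gene of the iron-binding protein lactoferrin, had −2.59, −2.78 and −2.37 in normal, −3.05, −2.28 and −2.20 in sham, and −1.70, −2.13 and −1.59 in lymphedematous skin. Its difference was 0.77 (SE 0.249, 1.71-fold), and its lowest value of all 9 arrays was that of sham array 1.

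Slpi encodes secretory leukocyte protease inhibitor, an inhibitor of neutrophil elastase made by epithelia and leukocytes. Its log2 ratios were 0.49, 0.072 and 0.25 in normal skin, 0.036, 0.66 and 1.98 in sham skin, and 0.80, 1.38 and 1.70 in lymphedematous skin. The difference between lymphedema and normal was 1.02 (SE 0.408, 2.03-fold). The highest value of all arrays was that of sham array 3, and sham array 1 lay below every normal array.

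**Figure D1:**
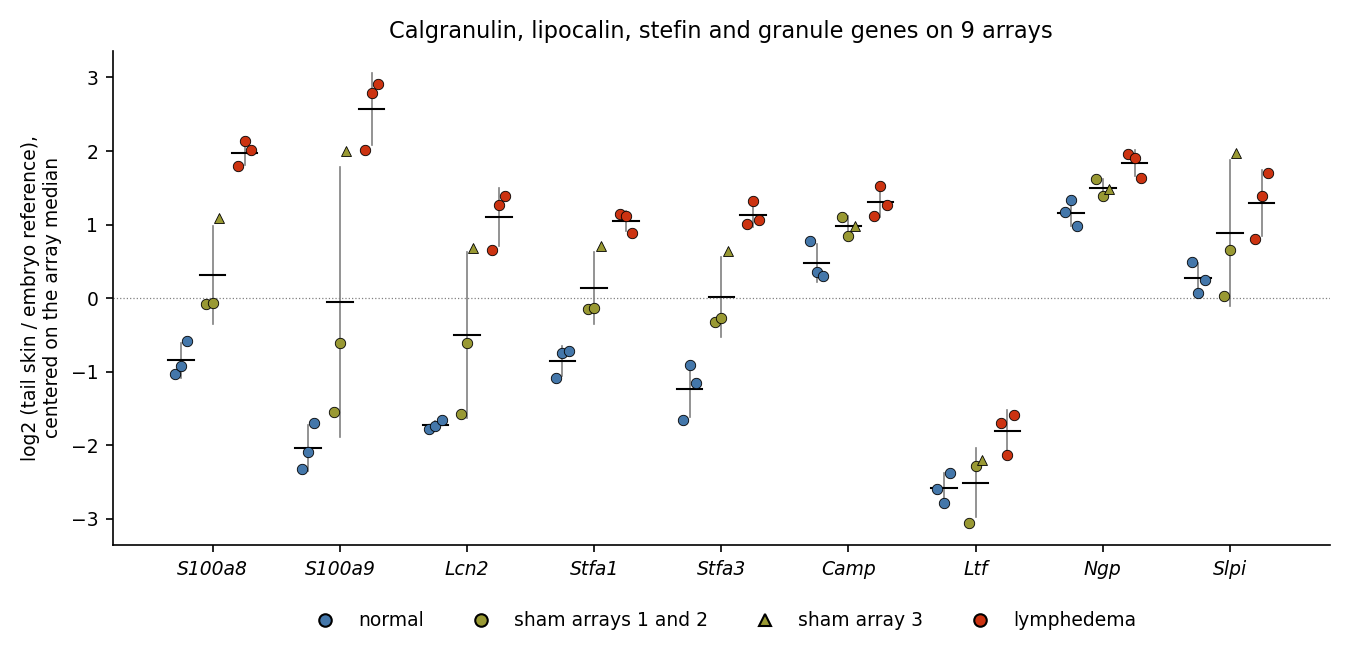
Log2 ratio of tail skin over embryo reference, centered on the array median (vertical axis), for the 9 genes (horizontal axis), with 1 point per array, the group mean as a horizontal bar and the SD as a vertical line (n = 3). Lymphedema arrays lie above normal arrays in every gene, and sham array 3, drawn as a triangle, lies near the lymphedema arrays in S100a9, Lcn2 and Slpi while sham arrays 1 and 2 lie lower.

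In all 9 genes every lymphedema array was above every normal array, which held for 23.6% of the 8644 genes measured. The median lymphedema minus normal difference of the 9 genes was 1.90, against 0.10 for all genes. The genes were chosen by this contrast, so the counts that follow describe them and are no evidence of a change. An adjusted p under 0.05 in limma, fitted over all genes, was reached by S100a8, S100a9, Lcn2, Stfa1, Stfa3 and Camp, 6 of the 9, and by 3.44% of all genes. The count was 3 without normal array 1, normal array 2 or lymphedema array 2, where 0.162%, 0.15% and 0.127% of all genes passed. It was 8 without sham array 1 or sham array 3, where 5.11% and 7.21% of all genes passed. With the missing-value set as a block none of the 9 passed, and no gene at all did (0.0%). That estimate sets lymphedema array 1 alone against the normal arrays and gave log2 4.05 for S100a9 and 2.64 for S100a8.

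In part of the group the ratio to the embryo crossed the array median. S100a8, S100a9, Lcn2, Stfa1 and Stfa3 lay below the array median on every normal array and above it on every lymphedema array. Of all 8644 genes, 236 (2.73%) did so. Camp, Ngp and Slpi were above the median and Ltf was below it on all 9 arrays. These statements hold for the mean of the clones, and single clones departed from them. Stfa1 clone M92417 stayed below the median on the lymphedema arrays, at −0.345, −0.255 and −0.424. S100a8 clone X87966 was above it on normal array 3, at 0.057. Ngp clone AV018521, left out of the mean, lay below it on all 8 arrays with a value. Camp clone AV091041 and Slpi clone AV088759 were below it on normal arrays 2 and 3. The Camp clone was also below it on sham array 2, and the Slpi clone on sham array 1.

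Over the 9 arrays the 5 genes that crossed the median had profiles with pairwise Pearson r of 0.949 to 0.995. Among Camp, Ltf, Ngp and Slpi r was 0.425 to 0.845, and between the 2 sets of genes it was 0.706 to 0.881. These values describe 9 arrays that share the difference between states. After the mean of each state was removed, r among the 5 genes was 0.727 to 0.975, with a median of 0.857. On the 6 normal and lymphedema arrays alone it ran from −0.273 to 0.913, with a median of 0.475. The higher values thus rest in part on the sham arrays.

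Different clones of a gene did not always give the same size of difference. In S100a9 the 3 clones (AV020023, AV050073 and BG072801) differed between lymphedema and normal by 4.73, 4.65 and 4.43, and their profiles over the arrays had r of 0.98 to 0.999. In S100a8, clone AV103776 had −1.48, −1.40 and −1.22 in normal skin, −0.56, −0.34 and 2.21 in sham skin, and 2.69, 3.38 and 3.56 in lymphedematous skin, a lymphedema minus normal difference of 4.58. Its second clone, X87966, had −0.58, −0.46 and 0.057 in normal, 0.40, 0.20 and −0.036 in sham, and 0.89, 0.88 and 0.47 in lymphedematous skin, a difference of 1.07. Both clones were higher in lymphedematous than in normal skin without overlap, but the second did not have sham array 3 as the highest sham array. The mean of the clones, 2.83, therefore lies between differences of very unequal size.

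The stefin and protease inhibitor clones varied in the same way. Stfa1 clones AV171866 and BG074171 differed by 2.46 and 2.89 between lymphedema and normal, and clone M92417 by 0.36. The Slpi clones AV088759 and U73004 differed by 1.86 and 0.19. On U73004 the lymphedema arrays, at 0.48, 0.92 and 1.02, overlapped the normal arrays, at 0.50, 0.49 and 0.86. The Camp clones (AV091041 and U43409) both differed by 0.83, and the Ltf clones (BG070413 and BI076450) by 0.81 and 0.74. Their profiles over the arrays were less alike, with r of 0.485 between the Camp clones and 0.473 between the Ltf clones. In sham minus normal the Camp clones differed by 0.24 and 0.76. Ngp clone U95002 differed by 0.68, whereas clone AV018521, which has no value on lymphedema array 2 and was left out of the gene's mean, differed by 0.019, with r of −0.241 between the clones over 8 arrays. All 18 clones were higher in mean in lymphedematous than in normal skin, which the choice of genes favored, and 10 of the 17 tested were past the threshold beside 2.94% of all features. None of the 17 passed in sham minus normal or in lymphedema minus sham, where 0.0195% and 0.00326% of all features did, and 10 and 11 of them had an unadjusted p under 0.05, as 7.77% and 6.69% of all features had. Without sham array 3, 8 of the 17 were past the threshold in lymphedema minus sham, and 1.15% of all features.

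**Figure D2:**
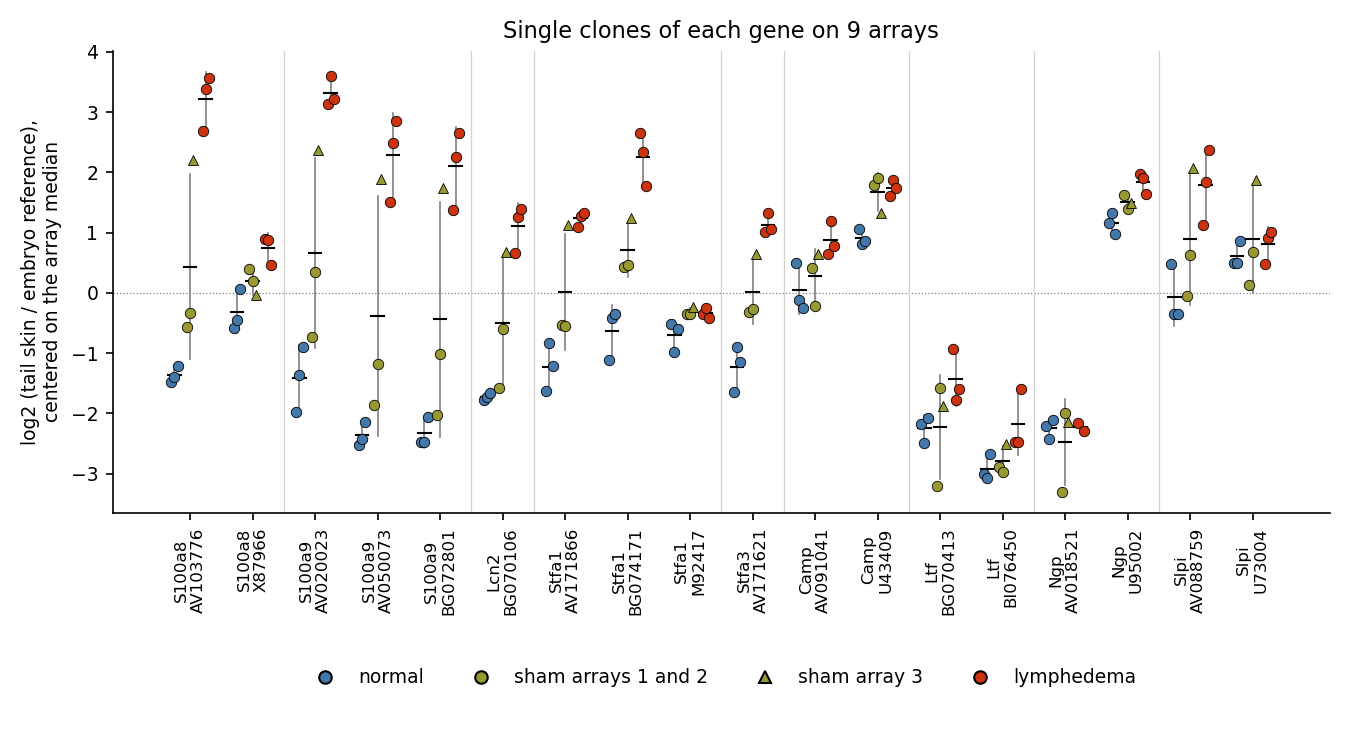
Log2 ratio of tail skin over embryo reference, centered on the array median (vertical axis), for each of the 18 clones (horizontal axis, gene and clone name), with 1 point per array, the group mean as a horizontal bar and the SD as a vertical line. The lymphedema minus normal differences of the 3 S100a9 clones are alike (4.73, 4.65 and 4.43), whereas those of the S100a8, Stfa1 and Slpi clones are unequal in size (1.07 and 4.58 in S100a8). On S100a9 clones AV050073 and BG072801, but not on AV020023, sham array 3 lies above lymphedema array 1.

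Sham skin was compared with normal skin, a contrast that holds both the incision and the dye injection without the cautery. The sham and normal arrays lie in different missing-value sets, so surgery and set cannot be told apart in it. This comparison uses the same normal arrays as the one above. The means of all 9 genes were higher in sham skin, by log2 0.072 for Ltf to 1.98 for S100a9, with a median of 0.99 against 0.058 for all genes. In 7 of the 9 every sham array was above every normal array, which held for 9.71% of all genes. This count, too, rests on means of clones. S100a8 clone X87966 overlapped, with sham array 3 at −0.036 and normal array 3 at 0.057, and so did Camp clone AV091041. Ngp clone AV018521, left out of the mean, had a difference of −0.235. None of the 9 passed the adjusted threshold in limma, nor did any of the 8644 genes (0.0%). At an unadjusted p under 0.05 there were 6 of the 9, and 685 (7.92%) of all genes. Stfa3 differed by 1.25 (SE 0.276, adjusted p = 0.216 from limma), S100a8 by 1.16 (SE 0.290, adjusted p = 0.297) and Stfa1 by 0.99 (SE 0.239, adjusted p = 0.297). S100a9 at 1.98 (SE 0.676, adjusted p = 0.480 from limma) and Lcn2 at 1.22 (SE 0.436, adjusted p = 0.499) had larger errors, with an SD in sham skin of 1.84 and 1.13.

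The sham arrays were not alike. The median difference of the 9 genes from the mean of the normal arrays was 0.49 on sham array 1, 0.71 on sham array 2 and 1.71 on sham array 3, against 0.11, 0.065 and 0.043 for all genes. Sham array 3 was above all normal and other sham arrays in 7 of the 9 genes (23.9% of all genes), with Camp and Ngp as the exceptions. It was nearer to the lymphedema mean than to the normal mean in 7 of the 9 (46.3% of all genes). Sham array 1 was so in 2 of the 9, Camp and Ngp (52.7% of all genes), and sham array 2 in none (49.5%). The median SD of the 9 genes was 0.539 in sham skin, 0.21 in normal and 0.208 in lymphedematous skin, against 0.319, 0.172 and 0.198 over all genes. Without sham array 3 the median sham minus normal difference of the 9 fell from 0.99 to 0.63, and the difference was 0.96 for S100a9, 0.63 for Lcn2, 0.076 for Slpi and −0.084 for Ltf. None of the 9 passed then, where 0.139% of all genes did.

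Lymphedematous skin was compared with sham skin to separate interruption of the lymphatics from the wound. The lymphedema arrays are those of the first comparison, by which the genes were known. All 9 means were higher in lymphedematous skin, with a median difference of 0.91 against 0.058 for all genes, and in 7 of the 9 every lymphedema array was above every sham array (6.63% of all genes). The exceptions were Lcn2 and Slpi. This count rests on means of clones. Neither Camp clone separated the lymphedema from the sham arrays. Clone U43409 had 1.80, 1.90 and 1.32 on the sham arrays and 1.60, 1.87 and 1.75 on the lymphedema arrays. S100a9 clones AV050073 and BG072801 overlapped as well, with lymphedema array 1 at 1.51 and 1.38 and sham array 3 at 1.88 and 1.74. The same held for Stfa1 clones AV171866 and M92417, Ltf clone BG070413 and Ngp clone AV018521, which was left out of the mean. The differences of M92417 and of Slpi clone U73004 were −0.027 and −0.09. With all arrays none of the 9 passed in limma, where 0.0231% of all genes did, and 6 of the 9 had an unadjusted p under 0.05, as 7.44% of all genes had. S100a8 differed by 1.67 (SE 0.290, adjusted p = 0.166 from limma), S100a9 by 2.62 (SE 0.676, adjusted p = 0.466) and Lcn2 by 1.61 (SE 0.436, adjusted p = 0.470). The differences of Stfa3 and Stfa1 were 1.12 and 0.91, that of Ltf was 0.70, and those of Slpi, Ngp and Camp were 0.40, 0.34 and 0.33.

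Without sham array 3 the lymphedema minus sham differences were 3.65 (SE 0.333) for S100a9, 2.05 (SE 0.193) for S100a8, 2.20 (SE 0.293) for Lcn2, 1.43 (SE 0.226) for Stfa3 and 1.20 (SE 0.182) for Stfa1. They were 0.95 for Slpi, 0.86 for Ltf, 0.33 for Camp and 0.33 for Ngp. The first 5 of the 9 were then past the threshold in limma, and 1.11% of all genes were. Of 18 alternative settings this was the only one in which any of the 9 passed. It removes the sham array that was highest in these same 5 genes, and the count is therefore given as a description and not as evidence of a difference. Nothing in the labels or methods sets sham array 3 apart, so both values stand side by side. Within the missing-value set that holds all sham arrays, lymphedema arrays 2 and 3 were above sham by 2.90 for S100a9 and 1.76 for S100a8, and none of the 9 passed there, nor any gene at all (0.0%).

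**Figure D3:**
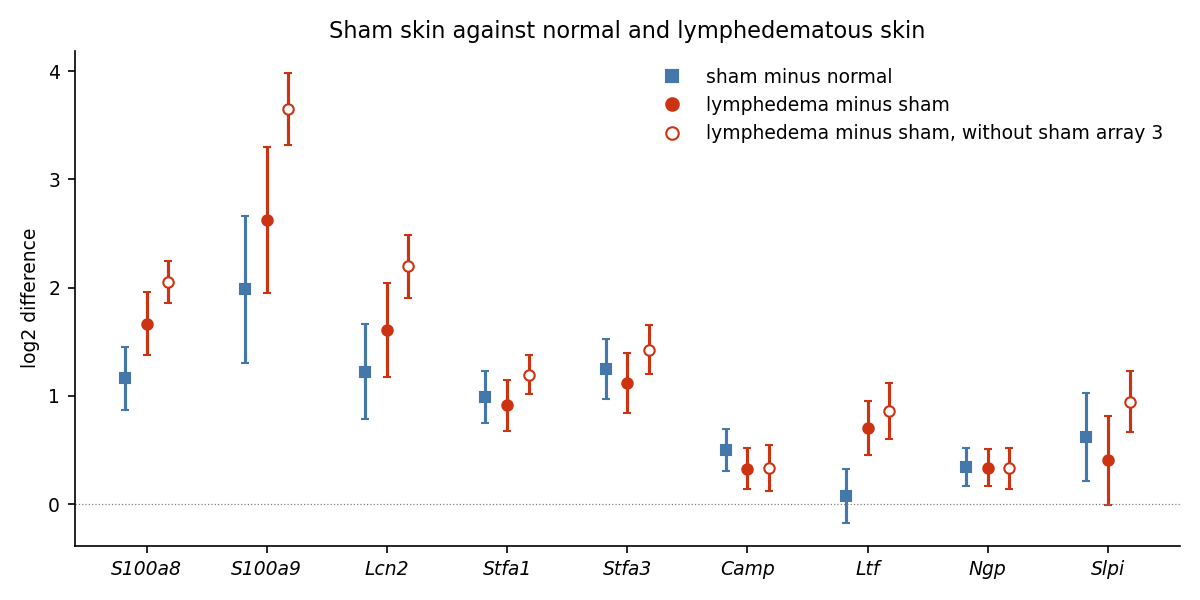
Log2 difference between states (vertical axis) for the 9 genes (horizontal axis), with points for the limma estimate and bars for its standard error. Squares are sham minus normal, filled circles lymphedema minus sham with all arrays, and open circles lymphedema minus sham without sham array 3, where S100a9 moves from 2.62 to 3.65 and Camp and Ngp hardly move.

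Markers of some other cell types, but not of all, were also high on sham array 3. The marker lists were drawn up with earlier results of these data known. Counts of markers that passed are thus a description and no evidence of a change. They stand beside the 2.83% of all genes that were higher in lymphedema minus normal. The mean of 10 macrophage markers over normal skin was 0.86 to 0.98 on the lymphedema arrays, 0.11 and −0.13 on sham arrays 1 and 2, and 0.82 on sham array 3. C1qa, C1qc, Aif1 and Ccr2, 4 of the 10, passed in lymphedema minus normal, and Adgre1, Cd68 and Csf1r, at 0.78, 0.49 and −0.06, did not. The mean of 6 fibroblast markers was 0.61 to 0.80 on the lymphedema arrays, and 0.31, 0.24 and 1.12 on sham arrays 1 to 3. Fbln1, 1 of the 6, passed. The mean of 5 skeletal muscle markers was −0.26 to 0.40 on the lymphedema arrays, and 0.16, 0.58 and 1.80 on sham arrays 1 to 3. Acta1, Mylpf and Tnnt3 were above the normal mean by 0.98, 1.73 and 2.23 on sham array 3. The mean of 5 mast cell markers was 0.47 to 0.70 on the lymphedema arrays and −0.22, −0.029 and 0.61 on the sham arrays. The mean of 3 blood endothelium markers was 0.84 to 1.04 on the lymphedema arrays, and 0.48, 0.18 and 0.83 on the sham arrays, and 2 of them, Kdr and Eng, passed. The mean of 5 keratinocyte markers was −0.036 to 0.39 on the lymphedema arrays, and 0.26, −0.11 and 0.097 on sham arrays 1 to 3, and none passed. The mean of 4 adipocyte markers was 0.40, 0.46 and −0.056 on sham arrays 1 to 3. The part of these cells in the calgranulin values was not tested.

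Genes that define neutrophils apart from the 9 were poorly covered. Of Ly6g, Mpo, Elane, Csf3r, Cxcr2 and Fpr1, 4 had a named feature, and only that of Cxcr2, a receptor that draws neutrophils to chemokines, had a value on all arrays. Cxcr2 differed by −0.036 between lymphedema and normal, 0.34 between sham and normal and −0.38 between lymphedema and sham. With features required on 2 of 3 arrays per group, Csf3r, the receptor of the growth factor that drives neutrophil production, had 0.29, 0.032 and −0.035 in normal, 1.13, 0.95 and 1.00 in lymphedematous, and −0.19 and 1.69 on sham arrays 2 and 3. Csf3r differed by 0.93 between lymphedema and normal (adjusted p = 0.214 from limma), and Mpo, the peroxidase of primary granules, by −0.49 (adjusted p = 0.601).

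The chemokine genes Cxcl1 and Cxcl5, whose products bind Cxcr2, also lacked values on some arrays. Cxcl5 had −0.25 and 0.16 on normal arrays 2 and 3, 1.42 and 4.76 on sham arrays 2 and 3, and 3.87, 3.96 and 3.67 on the lymphedema arrays. Under the looser filter it was higher in lymphedematous than in normal skin by 3.87 (adjusted p = 0.0352 from limma). The sham minus normal difference was 3.13 (adjusted p = 0.348). Cxcl1 had 1.16 and 0.49 on normal arrays 2 and 3, 2.62, 2.14 and 3.72 on the sham arrays, and 1.95, 3.41 and 2.84 on the lymphedema arrays, with 1.91 between lymphedema and normal (adjusted p = 0.0732). In both chemokine genes sham array 3 was the highest sham array.

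Lists of genes related to the 9 by family, cell or pathway held 101 measured genes. The lists were drawn up with earlier results of these data known. Their lymphedema minus normal counts and values, here and below, are therefore a description and no evidence of a change. In lymphedema minus normal 18 of them were higher and 1 lower past the threshold, where 2.83% and 0.602% of all genes were, and the median difference was 0.39. In sham minus normal and in lymphedema minus sham none of the 101 passed in limma, and at an unadjusted p under 0.05 there were 26 higher and 4 lower, and 16 higher and 4 lower, where 7.92% and 7.44% of all genes were in either direction. The lymphedema minus normal calls fell with those of all genes when a normal or lymphedema array was left out, and rose without sham array 1 or sham array 3. None of the 101 passed without lymphedema array 1, lymphedema array 2, normal array 1 or normal array 2, where 0.278%, 0.127%, 0.162% and 0.15% of all genes did. Without lymphedema array 3 or normal array 3, 4 were higher and none lower (0.845% and 0.787% of all genes), and without sham array 3, 29 were higher and 3 lower (7.21%). The counts by list that follow are those with all arrays, and stand beside the 2.83% of all genes that were higher.

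Among other genes of the neutrophil granules and oxidase, 5 of 11 were higher, 0 lower, and the median difference was 0.90. They were Lyz2 for lysozyme at 1.95 (SE 0.379, adjusted p = 0.0275 from limma), Cyba, Ncf4 and Cybb of the NADPH oxidase at 1.64, 1.25 and 0.90, and Pglyrp1, a peptidoglycan-binding granule protein, at 1.23. The others did not pass, with Mmp9, Serpinb1a and Cd63 at 1.10, 0.76 and 0.72. Chil3, Itgb2 and Cd177 were at 0.27, 0.064 and −0.16. Lyz2 and the oxidase genes are expressed by macrophages as well. The mean of these 11 genes over normal skin was 0.78 to 0.99 on the lymphedema arrays, and 0.25, 0.026 and 0.97 on sham arrays 1 to 3. Of 7 neutrophil surface and lipid mediator genes 2 were higher, Fcer1g, the signaling chain of Fc receptors, at 2.48 (SE 0.406, adjusted p = 0.0175 from limma) and Alox5ap, which serves leukotriene synthesis, at 1.50. The rest did not pass, with Ltb4r1 and Fcgr3 at 0.66 and 0.33, and Cxcr2, Selplg and Clec4e at −0.036, −0.064 and −0.305.

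Relatives of the calgranulins, stefins and other members gave few calls outside the cathepsins. Of 10 other S100 genes only S100a11 was higher, by 0.96 (SE 0.181, adjusted p = 0.0270 from limma), with a median of 0.42 for the 10. Of 4 stefins and cystatins Csta1 was higher, by 1.46 (SE 0.217, adjusted p = 0.0137 from limma), and Cstb and Cst3 were at 0.33 and 0.34 without passing. Of 11 cathepsins, the proteases that stefins inhibit, 3 were higher, Lgmn, or legumain, at 1.52, Ctsz at 1.34 and Ctsb at 0.86, and all 11 differences were positive, as were 62.0% of those of all genes. Of 10 relatives of Slpi and Lcn2, the WAP domain and lipocalin genes, none passed, with Apod at 0.91 and Wfdc21 at −1.06.

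Signals upstream and downstream of these proteins were also measured. Of 15 receptors and downstream genes 2 were higher, the adaptor Myd88 at 1.00 (SE 0.207, adjusted p = 0.0288 from limma) and Lrp1 at 0.97, while Tlr4, a receptor of calprotectin, at 0.49 and Cd14 at 1.28 did not pass. Of 9 chemoattractants and inducers measured on all arrays none was higher, and Ifng, the gene of interferon gamma, was lower by log2 −0.91 (SE 0.215, adjusted p = 0.0445 from limma). Of 7 transcription factors none passed, with Cebpa at −0.15 and Cebpd at −0.19 among the C/EBP factors and Stat3 at 0.57. Of 6 iron genes the ferritin chains Fth1 and Ftl1 were higher, by 1.16 and 1.21, and the transferrin receptor gene Tfrc was at 0.20.

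Epithelial genes were measured as well, since keratinocytes can make several of the 9. Of 4 epithelial antimicrobial genes Reg3g, a bactericidal lectin, was higher by 1.46 (SE 0.219, adjusted p = 0.0137 from limma), and Defb4 was at −0.30. Of 7 genes of activated keratinocytes Serpinb3a was higher, by 1.09, and the median difference was 0.48, against 0.10 for all genes. The others did not pass, with Sprr1a, Sprr1b and Tgm3 at 0.56, 0.54 and 0.48. Lce3a and Ivl were at 0.094 and 0.027, and Krt16, a keratin of wounded epidermis, was at −0.07. Serpinb3a was at 0.99 in sham minus normal (adjusted p = 0.196).

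Without sham array 3, 8 of the 101 related genes were past the threshold as higher and 0 as lower in lymphedema minus sham, where 0.891% of all genes were higher. These were Fcer1g at 2.13 (SE 0.201), Mmp9, a gelatinase, at 1.49, Cyba at 1.41, Ctsz at 1.27, Alox5ap at 1.22, Lgmn at 1.17, Pglyrp1 at 1.10 and Pf4 at 0.98. Of them 3 belong to the granule and oxidase list, 2 to the surface list, 2 to the cathepsins and 1 to the chemoattractants. With all arrays none of them passed.

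**Figure D4:**
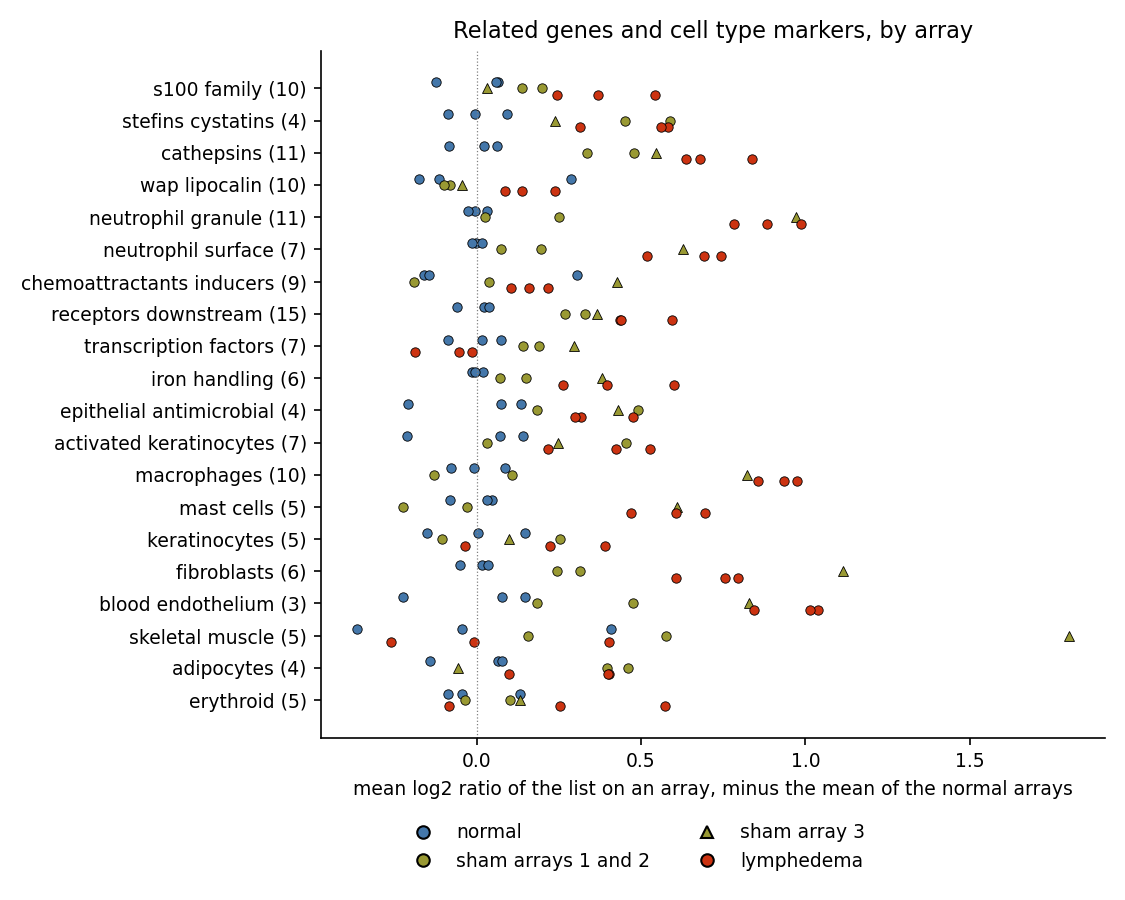
Mean log2 ratio of the genes of a list on an array minus the mean of the normal arrays (horizontal axis), for lists of related genes and of cell type markers (vertical axis, number of measured genes in brackets), with 1 point per array. Sham array 3, drawn as a triangle, lies among or beside the lymphedema arrays for the neutrophil granule and macrophage lists (0.97 and 0.82), beyond them for fibroblasts and skeletal muscle (1.12 and 1.80), and sham arrays 1 and 2 lie below sham array 3 in these 4 lists.

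The genes outside the 9 with the most similar profiles were sought among 870 genes with an SD of at least 0.5 over the arrays, by Pearson r with the mean profile of the 9 over 9 arrays. The first 10 were Wdr18 (0.996), Cyrib (0.985), Ifitm1 (0.985), 2610528A11Rik (0.982), Ifitm2 (0.976), Rarres2 (0.974), Alox5ap (0.968), Fcer1g (0.968), B2m (0.968) and Chil4 (0.962). Ifitm1 and Ifitm2 encode interferon-induced membrane proteins, Rarres2 the chemoattractant chemerin, B2m the light chain of MHC class I and Chil4 a chitinase-like protein. The size of their differences varied. Ifitm1 had −0.26, −0.28 and −0.52 in normal, 0.44, 0.48 and 1.28 in sham, and 2.07, 2.26 and 1.82 in lymphedematous skin. Wdr18, which followed the 9 most closely, had −0.94, −1.08 and −0.97 in normal, −0.70, −0.65 and −0.036 in sham, and 0.10, 0.21 and 0.17 in lymphedematous skin.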

How the data were processed

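Tail skin of 3 states was measured on 9 cDNA arrays with 2 colors. The authors extracted features with GenePix, subtracted background and normalized the dyes, and deposited 1 log ratio per feature and array. The base of these deposited values is not stated and they were read as log2, the convention of the database the labels name. The reference filter and imputation given in the methods were not applied to the table. Between 1.34% and 12.57% of the values of an array were missing. Depth has no meaning for arrays, and their number limits the precision.

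Arrays were grouped by their labels, turned in sign and centered on their medians, which had been −0.121 to −0.002. Features were named through the platform annotation, 20678 by 1 gene, 953 by several and 20993 by none. The fit covered 30702 features, or 8644 genes after clones were averaged, with a value on all 9 arrays. Models were fitted with limma 3.58.1 (lmFit, eBayes) in R 4.3.3, with a mean for each state and 1 estimate of the spread over all arrays. Values of p were two-sided and adjusted by Benjamini-Hochberg over all genes or all features, with a threshold of 0.05. SAM, which the methods name, was not run. The steps were tested on simulated data. Python 3.11.15 and matplotlib 3.10.9 served for summaries and figures.

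The members and gene lists were chosen with earlier results of these data known. Named genes are the 9 members and their clones, measured genes of the related lists, the 10 most similar profiles among genes with an SD of at least 0.5, and up to 3 markers per cell type. C1qa, C1qc, Aif1, Ccr2 and Fbln1 fall outside this rule, as do genes measured only under the looser filter, and were chosen after their values were seen. Lists of T cell (2 genes), B cell (1), eosinophil (1), adipocyte (4) and erythroid (5) markers had no gene past the threshold. Other settings left out the centering, brought arrays to a common median absolute deviation or common quantiles, admitted features measured on 2 of 3 arrays in each group, or fitted only the arrays of the 2 groups compared. Further settings were the replicate number or missing-value set as a block, 1 clone per gene, a comparison within a set, and each array left out in turn.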

Additional observations from a re-analysis of the deposited data

How the results depend on the processing

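All 9 genes kept a positive lymphedema minus normal difference under every alternative. The count past the threshold, 6, was 9 with only the lymphedema and normal arrays fitted, 0 with the missing-value set as a block, and ran from 3 to 8 when 1 array was left out. The median difference, 1.90, was 2.37 with the clone of largest spread per gene. The sham minus normal median, 0.99, was 0.56 with the set as a block and 0.634 without sham array 3, and the count of 0 did not change. In lymphedema minus sham the count was 0 except without sham array 3, where it was 5 (range 0 to 5 when 1 array was left out). The reversals concern Ltf and Slpi. In the fit described above their sham minus normal differences were 0.072 and 0.62, and Slpi was at 0.40 in lymphedema minus sham. Ltf in sham minus normal was −0.019 with quantile normalization, −0.027 without normal array 2 and −0.043 without sham array 2, and ran from −0.084 without sham array 3 to 0.343 without sham array 1. Slpi was −0.119 in sham minus normal with the set as a block, and in lymphedema minus sham it ran from −0.024 without sham array 1 to 0.946 without sham array 3. The cause was not tested. Same-numbered arrays of different groups had correlations of deviations from −0.244 to 0.279 over 9 pairs, and 3 arrays correlated best with their own number, so the numbers do not pair them. With the replicate number as a block 5 of the 9 genes passed in lymphedema minus normal, and 116 genes were higher and 29 lower, against 245 and 52. Over all genes the split was 154 and 56 without centering, 112 and 72 with quantile normalization, 614 and 228 with arrays of the 2 groups only, and 0 and 0 with the set as a block. Leaving out 1 array gave between 9 and 484 higher and between 2 and 139 lower.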
